A study of Mus musculus with 6 samples.

Results

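The 46 genes described here mainly encode proteins of the nucleolus that help make the small ribosomal subunit. All 46 were found by symbol among the 38739 genes of the expression table. They comprise the small-subunit (SSU) processome, the core proteins of small nucleolar ribonucleoproteins (snoRNPs), nucleolar RNA helicases, late factors of the pre-40S particle, subunits of RNA polymerase I, the abundant nucleolar proteins nucleolin and nucleophosmin, and a few factors of the large subunit. They were listed by name and function. Earlier results of these data were known when the list was made, so the choice may not be independent of their change with treatment. Expression was measured by RNA sequencing in neutrophils lavaged from the peritoneum of cGAS-/- C57B/L6 mice, which lack the cytosolic DNA sensor cGAS, after thioglycolate injection. In 3 samples the cells were kept in medium (untreated) and in 3 they were given LPS, a cell wall component of Gram-negative bacteria that Toll-like receptor 4 detects, at 500 ng/mL according to the labels, both for 2 h. The study's methods name a lower dose for the sequenced cells and describe adult male mice. The deleted gene Cgas had levels of 0.203, 0.307 and 0.180 when untreated and of 0.184, 0.0713 and 0.0286 after LPS. Every sample carried the deletion, so no wild-type neutrophils enter any comparison, and nothing in the labels says whether the 3 samples of a group came from separate mice. The p-values therefore measure the spread between these samples, which may be technical.

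In the nucleolus, RNA polymerase I transcribes the ribosomal DNA into a long precursor. The SSU processome assembles on the precursor around the U3 snoRNA, holds its ends together while the 18S part folds, and is taken apart by helicases before the pre-40S particle leaves for the cytoplasm, whereas box C/D and box H/ACA snoRNPs guide methylation and pseudouridylation of the rRNA. Genes of this pathway are known to follow cell growth, and mature neutrophils are short-lived, non-dividing cells with few ribosomes and no prominent nucleolus.

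The authors name the values normalized counts. They were taken here as TPM, a length-corrected measure of transcript abundance, per gene after a scaling by the authors, and are called levels below. The unit was read from the values and the tool, and whether a gene's value is a sum or an average over its transcripts is not given in the sources used here, so that a change in which transcripts are used could move a level. Differences were tested with limma on log2(level + 1), and fold changes are on that scale, LPS minus untreated, which understates the change of genes at low levels. A gene was called higher or lower at the limits the study used, an unadjusted p under 0.01 with a log2 fold change over 2 or under -2. Levels are compared between samples for 1 gene, not between genes.

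In 44 of the 46 genes the log2 fold change was above 0, which was the case for 52.9% of the 23049 genes tested and for 64.9% of the 5895 protein-coding genes with a mean level of at least 1. The median log2 fold change of the 46 was 1.25, beside 0.01 over all genes tested and 0.37 over those protein-coding genes. At the limits of the study 4 of the 46 rose: Nhp2, Pwp2, Utp3 and Nol10. This share stood beside 1.69% of all genes tested and 4.89% of the protein-coding genes with a mean level of at least 1. None of the 46 was called lower, against 1.31% of all genes tested, and none had a log2 fold change under 0 with an unadjusted p under 0.05 in limma, whereas 21 had one above 0 with such a p. Over all genes tested, 6.66% were lower and 10.3% higher at that p. Of the 5895 protein-coding genes with a mean level of at least 1, 442 were lower and 1207 higher. With limma and Benjamini-Hochberg adjustment over all 23049 genes, Utp3 alone reached an adjusted p under 0.05, which 0.894% of all genes tested reached in the higher direction. In 16 of the 46 genes the lowest LPS sample exceeded the highest untreated sample (13.1% of all genes tested and 24.6% of the protein-coding genes with a mean level of at least 1), and in 0 of the 46 the highest LPS sample was below the lowest untreated one, as in 9.75% of all genes tested.

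**Figure D1:**
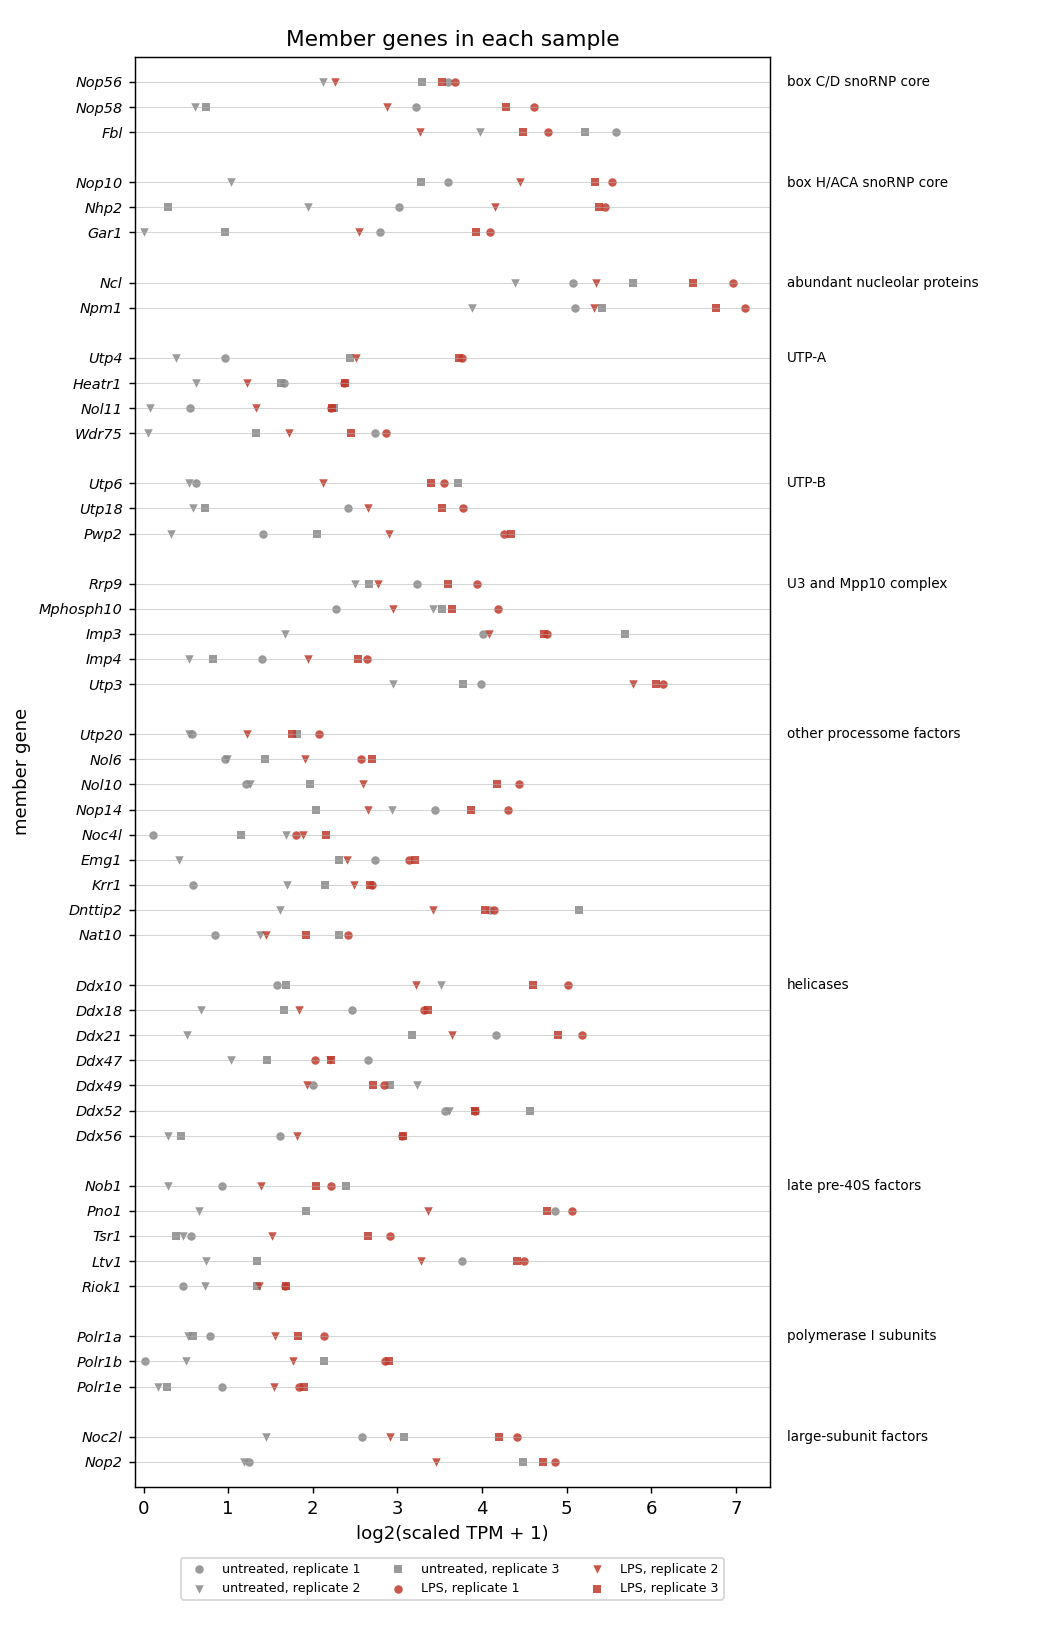
Level of each of the 46 genes in each of the 6 samples, as log2(scaled TPM + 1) on the horizontal axis, with genes grouped by role. Grey symbols are untreated and red symbols LPS samples, and the symbol gives the replicate number. In 16 genes every red symbol lies to the right of every grey one, and LPS replicate 2 (red triangles) is the lowest LPS sample in 44 genes.

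Promoter sequence is shown for the 4 genes that rose, with the most frequent of the 4 motifs searched marked. Windows from RefSeq (build GRCm38.p6), reaching from 250 bases before to 50 bases after the transcription start, were matched by symbol for 42 of the 46 genes, 44 windows in all. Npm1, Utp6, Nol6 and Fbl had none, whereas Ddx49 and Noc2l had overlapping windows that were counted separately. The 250 bases before the start follow, read 5′ to 3′ on the strand of the gene, with CCGGAAG or its reverse complement CTTCCGG in capitals. The Utp3 sequence is chr5:88554212-88554461 on the plus strand, that of Nhp2 chr11:51619523-51619772 on the plus strand, that of Pwp2 chr10:78185150-78185399 on the minus strand and that of Nol10 chr12:17348243-17348492 on the plus strand.
Utp3: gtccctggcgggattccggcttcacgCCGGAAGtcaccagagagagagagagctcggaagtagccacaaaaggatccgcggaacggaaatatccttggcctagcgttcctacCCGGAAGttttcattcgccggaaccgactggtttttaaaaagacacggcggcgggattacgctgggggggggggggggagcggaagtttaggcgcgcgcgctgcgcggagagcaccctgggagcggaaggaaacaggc
Nhp2: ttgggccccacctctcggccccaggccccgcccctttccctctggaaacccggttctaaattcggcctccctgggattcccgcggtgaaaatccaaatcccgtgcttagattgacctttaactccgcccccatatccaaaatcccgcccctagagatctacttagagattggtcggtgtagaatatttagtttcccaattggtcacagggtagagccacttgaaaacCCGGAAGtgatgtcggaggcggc
Pwp2: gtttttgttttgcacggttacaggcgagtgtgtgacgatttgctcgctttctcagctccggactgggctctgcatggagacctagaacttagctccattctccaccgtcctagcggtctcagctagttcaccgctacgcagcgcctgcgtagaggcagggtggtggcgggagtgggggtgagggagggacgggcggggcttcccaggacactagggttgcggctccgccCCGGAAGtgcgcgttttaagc
Nol10: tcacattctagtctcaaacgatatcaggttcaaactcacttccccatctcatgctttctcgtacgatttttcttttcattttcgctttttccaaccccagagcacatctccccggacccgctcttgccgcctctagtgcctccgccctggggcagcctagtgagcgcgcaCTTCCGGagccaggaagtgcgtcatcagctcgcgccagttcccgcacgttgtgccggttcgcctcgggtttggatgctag

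The letters CCGGAAG hold the core that factors of the ETS family are known to bind. Counted on either strand, they occurred in 20 of the 44 windows (45.5%), beside 8.86% of all 32851 windows and 11.6% of the 21263 windows of protein-coding genes. These windows belonged to 18 genes with a median log2 fold change of 2.03, beside 0.97 for the 24 genes with a window but without the letters. Counting the base before the start as -1 and the start itself as 1, the match began at -23 in Nhp2, at -80 in Nol10, at -224 and -138 in Utp3, and at -21 and 20 in Pwp2, the last lying beyond the stretch printed above. The E-box CACGTG, which MYC with its partner MAX is known to bind, occurred in 9 of the 44 windows (20.5%), beside 7.15% of all windows. None of the 4 genes that rose held it. A log2 fold change above 0 was found in all 9 genes with it and in 32 of the 33 genes whose window lacked it. The median log2 fold change was 1.92 for the 9 genes and 1.15 for the 33. The TATA box letters TATAAA occurred in 1 window (2.27%, beside 13.6% of all windows), that of Nol11. The cAMP response element TGACGTCA occurred in 3 windows (6.82%, beside 1.79%), those of Noc4l and the overlapping windows of Ddx49. None of the 4 motifs contains another. These are descriptions of letters in fixed windows, and no test was made of them.

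Among the U3 snoRNP and Mpp10 complex genes was Utp3, the gene with the smallest p of the 46. Utp3, whose protein (Sas10) is a processome component, lies on chromosome 5 (GRCm39 88702321 to 88703949, plus strand, ENSMUSG00000070697). Its levels were 14.9, 6.70 and 12.7 in untreated replicates 1, 2 and 3, and 69.8, 54.3 and 65.5 in LPS replicates 1, 2 and 3. The lowest LPS sample thus lay well above the highest untreated one. The mean rose from 11.4 ± 4.23 to 63.2 ± 7.98 (SD, n = 3 each), a log2 fold change of 2.43 (SE 0.37, limma adjusted p = 0.0400, 0.0178 to 0.148 over 19 alternative analyses). Imp4, which binds the precursor beside the U3 snoRNA, was at 1.63, 0.449 and 0.767 when untreated and at 5.24, 2.84 and 4.80 after LPS. The groups did not overlap, but the log2 fold change of 1.46 (SE 0.38) lay under the fold limit and the limma adjusted p was 0.119. Its partners Mphosph10 (Mpp10) and Imp3 had log2 fold changes of 0.53 and 0.73, and Rrp9, the U3-specific protein, one of 0.64, all with overlapping groups. Imp3 was at 15.2, 2.17 and 50.8 when untreated and at 26.2, 15.9 and 25.6 after LPS, so that the untreated samples alone spanned the LPS range.

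The H/ACA snoRNP genes, which encode the core of the pseudouridylation guides and of telomerase RNP, had the highest median by role. Nhp2 (chromosome 11, GRCm39 51510383 to 51520806, plus strand, ENSMUSG00000001056) was at 7.10, 2.83 and 0.218 in the untreated samples and at 42.7, 16.8 and 40.9 after LPS. Every LPS sample was above every untreated one, and the untreated samples differed widely among themselves. The mean rose from 3.38 ± 3.47 to 33.4 ± 14.5, with a log2 fold change of 3.25 (SE 0.77, limma adjusted p = 0.101), the largest of the 46. Nop10 was at 11.2, 1.04 and 8.67 when untreated and at 45.3, 20.8 and 39.5 after LPS, again without overlap. Its log2 fold change of 2.47 (SE 0.75) was over the fold limit, but its unadjusted p was not under the limit of 0.01 and its limma adjusted p was 0.165. Gar1 had 5.95, 0 and 0.954 when untreated and 16.2, 4.82 and 14.2 after LPS, so that LPS replicate 2 fell below untreated replicate 1. The pseudouridine synthase of these particles was not among the 46 genes.

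The box C/D core, which holds the guides of rRNA methylation and the U3 snoRNP, did not move as a unit. Nop58 was at 8.33, 0.525 and 0.671 when untreated and at 23.4, 6.35 and 18.4 after LPS, with a log2 fold change of 2.40 (SE 0.85, limma adjusted p = 0.227). Its partner Nop56 was at 11.1, 3.36 and 8.82 when untreated and at 11.9, 3.81 and 10.5 after LPS, with a log2 fold change of 0.15 (SE 0.58). Fbl, the methyltransferase fibrillarin, was at 46.9, 14.8 and 36.2 when untreated and at 26.4, 8.63 and 21.5 after LPS. The untreated levels reached higher than the LPS levels, but the groups overlapped and the log2 fold change of -0.75 (SE 0.60, limma adjusted p = 0.551) did not pass. Fbl and Ddx49 were the only members of the 46 with a log2 fold change under 0. The difference between Nop58 and Fbl was not tested.

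Nucleolin (Ncl) and nucleophosmin (Npm1), abundant proteins that bind pre-rRNA and pre-ribosomes, were higher in mean after LPS with overlapping groups. Ncl was at 32.8, 19.97 and 54.2 when untreated and at 124, 39.6 and 89.3 after LPS. Npm1 was at 33.3, 13.7 and 41.7 when untreated and at 137, 39.1 and 108 after LPS. In both genes LPS replicate 2 lay within the untreated range and the other LPS samples above it. The log2 fold changes were 1.18 (SE 0.56, limma adjusted p = 0.350) for Ncl and 1.60 (SE 0.63, limma adjusted p = 0.274) for Npm1.

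The UTP-B complex, an early building block that binds the U3 snoRNA and the precursor, was represented by Pwp2, Utp18 and Utp6. Pwp2 (chromosome 10, GRCm39 78006735 to 78021026, minus strand, ENSMUSG00000032834) was at 1.66, 0.246 and 3.15 when untreated and at 18.2, 6.44 and 19.2 after LPS. All LPS samples were above all untreated samples, and the mean rose from 1.69 ± 1.45 to 14.6 ± 7.10, a log2 fold change of 2.57 (SE 0.62, limma adjusted p = 0.103). Utp18 was at 4.32, 0.504 and 0.650 when untreated and at 12.7, 5.26 and 10.5 after LPS, with no overlap and a log2 fold change of 2.07 (SE 0.61, limma adjusted p = 0.154). Utp6 was at 0.534, 0.445 and 12.2 when untreated and at 10.7, 3.36 and 9.57 after LPS, with untreated replicate 3 above every LPS sample. The UTP-A complex, which joins the start of the precursor first, had a median log2 fold change of 0.97. In Utp4 the untreated levels were 0.945, 0.300 and 4.42 and the LPS levels 12.6, 4.70 and 12.3, without overlap (log2 fold change 2.08, SE 0.65, limma adjusted p = 0.179). Wdr75 was at 5.66, 0.0390 and 1.51 when untreated and at 6.26, 2.29 and 4.48 after LPS, with a log2 fold change of 0.97 (SE 0.73) with overlapping groups. Heatr1 and Nol11 had log2 fold changes of 0.69 and 0.97, also with overlap.

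Among the other processome factors Nol10 (chromosome 12, GRCm39 17398429 to 17480096, plus strand, ENSMUSG00000061458) was at 1.31, 1.38 and 2.91 when untreated and at 20.7, 5.01 and 17.0 after LPS. The groups did not overlap, and LPS replicate 2 was closer to the untreated samples than to the other LPS samples. The mean rose from 1.87 ± 0.900 to 14.3 ± 8.21, a log2 fold change of 2.26 (SE 0.57, limma adjusted p = 0.111). Nol6, Krr1 and Noc4l were also above the untreated samples in every LPS sample, with log2 fold changes of 1.26, 1.15 and 0.96. Emg1, which encodes a methyltransferase of the 18S rRNA, had one of 1.09, Nop14 0.81, Utp20 0.71 and Nat10, the rRNA acetyltransferase, 0.41, all 4 with overlapping groups. Dnttip2 was at 16.1, 2.05 and 34.3 when untreated and at 16.6, 9.73 and 15.4 after LPS, so that the LPS samples lay inside the untreated range (0.25, SE 0.90).

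**Figure D2:**
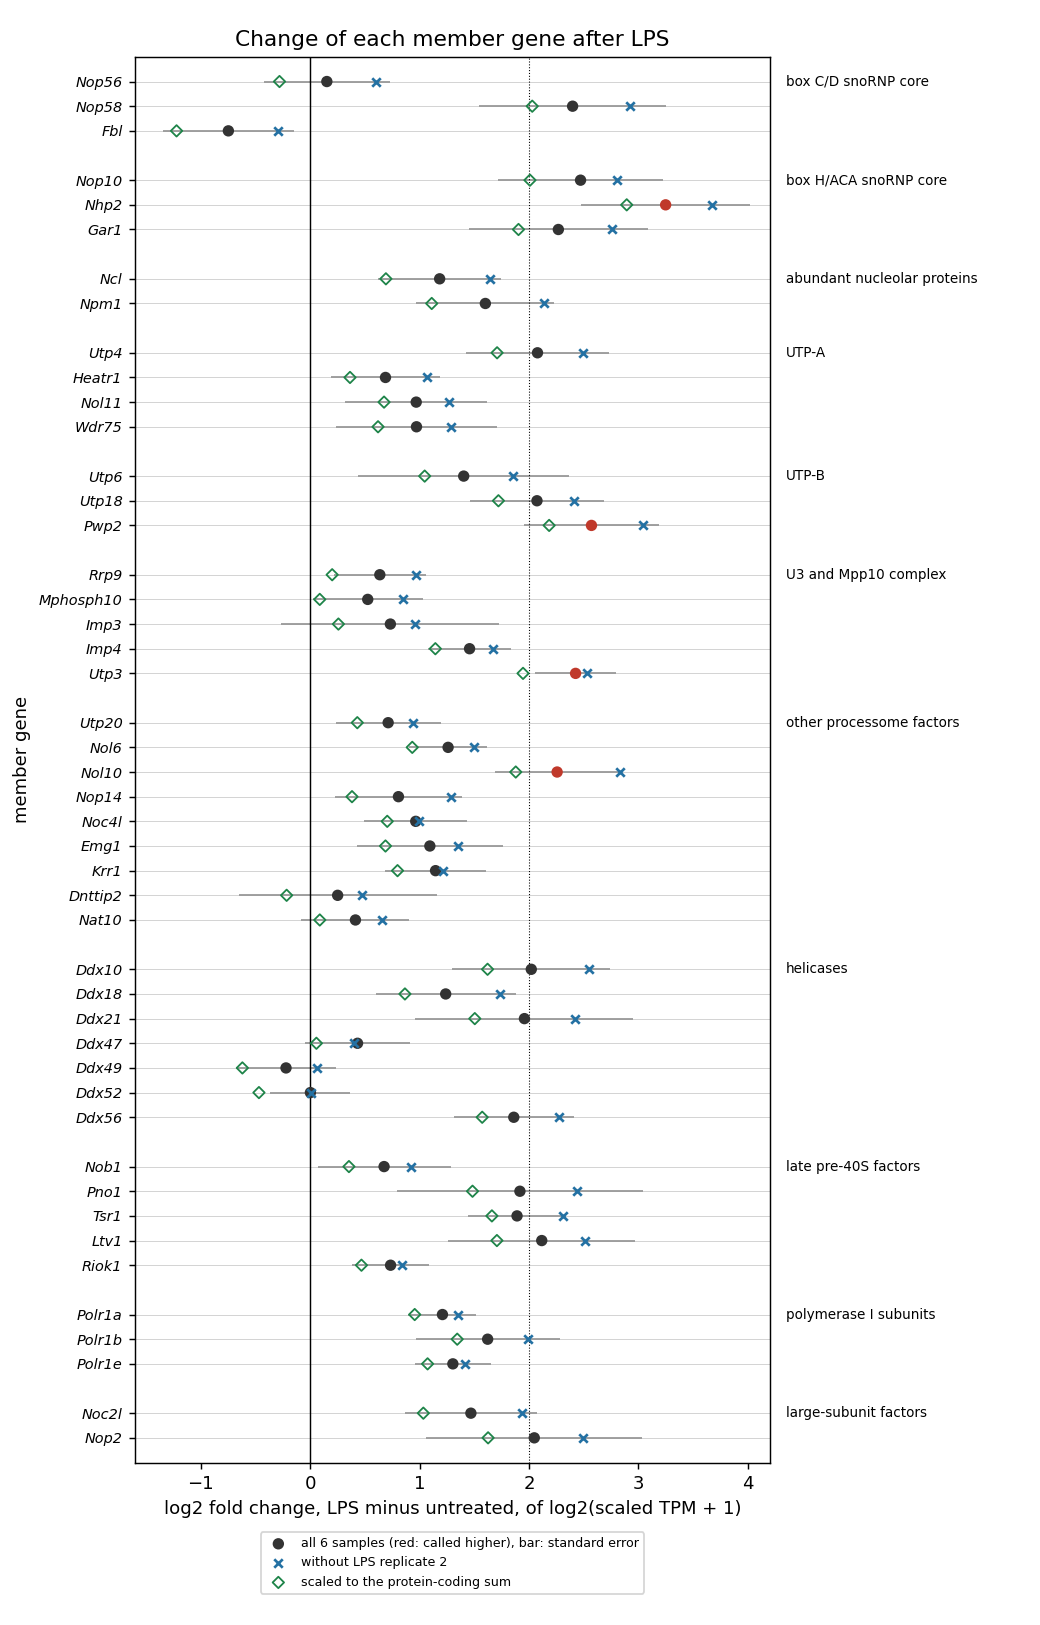
Log2 fold change of each of the 46 genes, LPS minus untreated, on the log2(scaled TPM + 1) scale, by role. Points with bars are the estimates from all 6 samples with their standard errors, in red for the 4 genes called higher, crosses leave out LPS replicate 2 and open diamonds rescale each sample to the same protein-coding sum. The dotted line marks the fold limit of 2. Of the points with bars, only those of Fbl and Ddx49 lie left of 0, and the diamonds of Nop56, Dnttip2 and Ddx52 lie there too.

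The helicases, which remodel RNA within the particles, had log2 fold changes from -0.22 to 2.02. Ddx56 was at 2.06, 0.218 and 0.359 when untreated and at 7.29, 2.51 and 7.35 after LPS, without overlap (log2 fold change 1.86, SE 0.55, limma adjusted p = 0.154). Ddx10 was at 1.98, 10.4 and 2.22 when untreated and at 31.4, 8.30 and 23.4 after LPS (2.02, SE 0.72), where untreated replicate 2 exceeded LPS replicate 2. Ddx21, which also binds ribosomal DNA and the polymerase I machinery, was at 16.9, 0.421 and 8.05 and then at 35.2, 11.5 and 28.9 (1.96, SE 1.00). Both had overlapping groups and neither passed. Ddx52 was at 10.9, 11.2 and 22.7 when untreated and at 14.2, 14.0 and 14.1 after LPS, with a log2 fold change of 0.00 (SE 0.37). Its LPS samples were nearly equal and inside the untreated range. Ddx49 was at 3.00, 8.42 and 6.56 when untreated and at 6.17, 2.82 and 5.56 after LPS (-0.22, SE 0.46). Ddx47 and Ddx18 had log2 fold changes of 0.43 (SE 0.48) and 1.24 (SE 0.64).

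The late pre-40S factors act after the processome, up to the last cleavage of the 18S rRNA. Tsr1, a factor related to a translational GTPase, was at 0.477, 0.378 and 0.306 when untreated and at 6.54, 1.85 and 5.30 after LPS, with no overlap. Its log2 fold change of 1.89 (SE 0.44, limma adjusted p = 0.0974) was just under the fold limit, while that of Nol10, 2.26, was the lowest among the 4 genes called. Ltv1, an export factor, had a log2 fold change of 2.12 (SE 0.85, limma adjusted p = 0.285) with untreated levels from 0.673 to 12.6 and LPS levels from 8.72 to 21.6. Pno1, the partner of the endonuclease Nob1, was at 28.2 in untreated replicate 1 and at 0.576 and 2.78 in the other untreated samples, against 9.28 to 32.4 after LPS. Nob1 was at 0.902, 0.221 and 4.25 when untreated and at 3.63, 1.62 and 3.10 after LPS (0.68, SE 0.61), with untreated replicate 3 above every LPS sample. The kinase gene Riok1 had a log2 fold change of 0.73 without overlap between the groups.

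The polymerase I genes included a pair with small standard errors, at low levels where adding 1 before the log also narrows the spread. Polr1a, the largest subunit, was at 0.717, 0.438 and 0.493 when untreated and at 3.38, 1.93 and 2.55 after LPS. Polr1e was at 0.899, 0.124 and 0.207 when untreated and at 2.57, 1.92 and 2.73 after LPS. In both genes the groups did not overlap, and the log2 fold changes were 1.21 (SE 0.31, limma adjusted p = 0.114) and 1.30 (SE 0.35, limma adjusted p = 0.124), within the p limit and under the fold limit. Polr1b, the second-largest subunit, was at 0.0150, 0.414 and 3.40 when untreated and at 6.25, 2.40 and 6.46 after LPS (1.62, SE 0.66), so that untreated replicate 3 was above LPS replicate 2. With a log2 fold change limit of 1 in place of 2, Polr1a, Polr1e, Imp4 and Tsr1 would join the 4 genes called, making 8. The share of all genes passing that looser limit is not given here, so this count cannot be weighed against it. Of the large-subunit factors, Nop2, an rRNA methyltransferase, was at 1.37, 1.27 and 21.3 when untreated and 28.2, 10.0 and 25.4 after LPS (2.05, SE 0.99), and Noc2l was at 5.00, 1.74 and 7.42 and then at 20.3, 6.51 and 17.3, a log2 fold change of 1.47 (SE 0.60, limma adjusted p = 0.295), both with overlapping groups.

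By role, the median log2 fold change was 2.47 for the H/ACA core, 2.07 for UTP-B, 1.89 for the late pre-40S factors and 1.76 for the large-subunit factors. It was 1.39 for the abundant nucleolar proteins, 1.30 for polymerase I, 1.24 for the helicases and 0.97 for UTP-A. The other processome factors had 0.96, the U3 and Mpp10 genes 0.73 and the box C/D core 0.15. Each median rests on 2 to 9 genes, and differences between roles were not tested.

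LPS replicate 2 stood apart for these genes. It was the lowest of the 3 LPS samples in 44 of the 46, all but Noc4l and Ddx47, whereas it was the lowest in 45.6% of the protein-coding genes with a mean level of at least 1. On the log2(level + 1) scale the 46 genes were lower in LPS replicate 2 than the mean of the other LPS samples by a median difference of -1.06, with a range of -1.72 to 0.09. The same median over the protein-coding genes was -0.02. The median ratio of the levels in LPS replicate 1 to those in LPS replicate 2 was 2.56, that of replicate 3 to replicate 2 was 2.30, and that of replicate 1 to replicate 3 was 1.11. Untreated replicate 2 was the lowest untreated sample in 32 of the 46 genes (69.6%, beside 37.9% of the protein-coding genes), with a median difference of -1.03 to the others, beside -0.12. The median log2(level + 1) of the 46 genes was 2.34, 0.87 and 2.10 in untreated replicates 1, 2 and 3 and 3.77, 2.53 and 3.56 after LPS. The LPS sample numbered 2 was thus only slightly above the untreated samples numbered 1 and 3, and well above the untreated sample numbered 2. Nothing in the labels ties samples of the same number to each other.

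**Figure D3:**
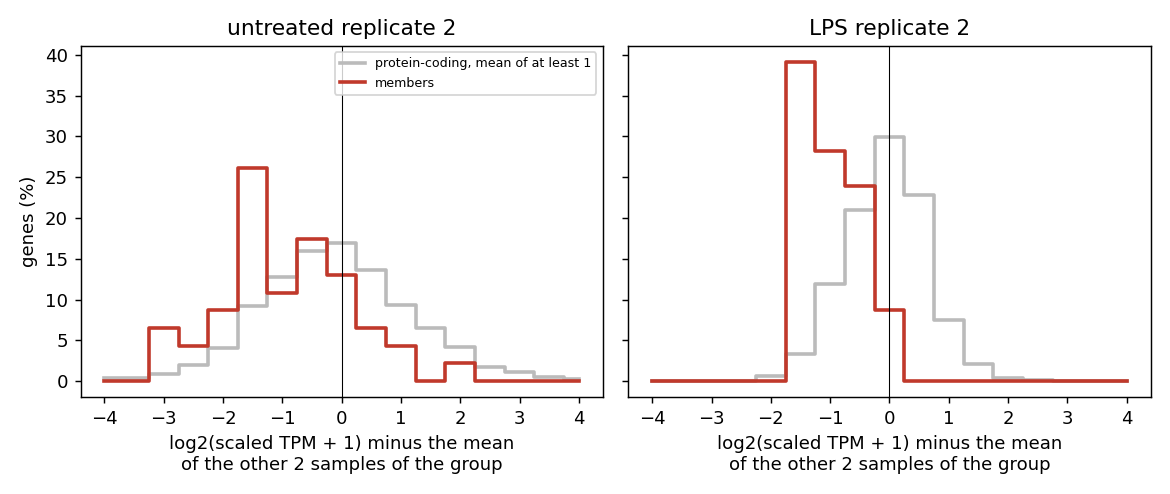
Share of genes (%) by the difference of untreated replicate 2 (left) and LPS replicate 2 (right) from the mean of the other 2 samples of its group, in log2(scaled TPM + 1), in bins of 0.5. Red is the 46 genes and grey the 5895 protein-coding genes with a mean level of at least 1. The red distribution lies left of the grey one in both panels, with medians of -1.03 and -1.06.

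The samples numbered 2 also differed in cell type markers. The summed level of the neutrophil markers, of which 10 of 12 were in the table and none was at 0 throughout, was 28300 in untreated replicate 2 and 9841 and 9565 in the other untreated samples, and 54390 in LPS replicate 2 and 18163 and 15984 in the other LPS samples. S100a8 and S100a9 made up most of these sums, at 8405 and 16151 in untreated replicate 2. Of the 10 neutrophil markers, 7 were highest in untreated replicate 2 among the untreated samples, and 9 in LPS replicate 2 among the LPS samples. Csf3r and Ltf lay between the other untreated samples in untreated replicate 2, Camp was the lowest there, at 1.16 against 24.1 and 9.18, and Ltf was the exception after LPS. The B cell markers Cd79a and Cd79b went the other way when summed, with 138 against 518 and 362 when untreated and 53.9 against 196 and 186 after LPS. Cd79b alone was at 111 in untreated replicate 2, between 61.3 and 175 in the other untreated samples. The sums ranged from 166 to 197 when untreated and from 266 to 414 after LPS for 6 of 9 macrophage or monocyte markers, and from 10.8 to 14.8 and from 4.76 to 12.1 for 5 of 6 T cell markers. Cd68 made up most of the macrophage or monocyte sums, at 157 to 179 when untreated and 230 to 381 after LPS. Of these 6 markers, 2 (Cd68 and C1qb) were above all untreated samples in every LPS sample, and 2 (Mrc1 and Ccr2) were below. Erythroid sums (3 of 4 markers) ran from 19.1 to 2695 and from 117 to 3074, and mast cell sums (3 of 4) from 4.69 to 40.8 and from 5.05 to 49.1, highest in the samples numbered 3 in both cases. Eosinophil markers (4 of 4, Epx at 0 in all samples) summed to 0.610 to 1.90 and mesothelial markers (3 of 4) to at most 0.603. The levels thus carry neutrophil markers in every sample together with those of other leukocytes, fewer cells of a type cannot be told apart from less RNA per cell, and the part of these differences in the levels of the 46 genes was not tested.

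Without LPS replicate 2, the median log2 fold change of the 46 was 1.57 and 5 genes were called higher (1.54% of all genes tested): Pwp2, Utp3, Nol10, Ddx56 and Tsr1. Nhp2 then had a log2 fold change of 3.67 just outside the limit on p (limma adjusted p = 0.132), and Utp3 an adjusted p of 0.0724. The calls depended on which sample was left out. They were Utp3 alone without LPS replicate 1 or LPS replicate 3, Utp3 and Ddx10 without untreated replicate 2, and 8 and 6 genes without untreated replicates 1 and 3. Over all 23049 genes tested, 273 and 238 were called higher without LPS replicates 1 and 3. Without untreated replicates 1, 2 and 3 the counts over all genes were 421, 434 and 431. Of the 46 genes, Utp3 was the only one called in each of the 6 analyses that left out 1 sample.

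The samples were not on a common total. The summed levels were 603599 to 713384 in untreated and 404675 to 465904 in LPS samples. Genes above 0 numbered 15419 to 15800 in untreated samples and 18518, 16148 and 19191 in LPS replicates 1, 2 and 3. The protein-coding share of the summed levels was 21.0% to 28.3% in untreated and 49.7% to 58.9% in LPS samples. When each sample was scaled to the same protein-coding sum, 0 of the 46 genes were called higher by limma (0.954% of all genes tested). In that analysis 41 had a log2 fold change above 0, and the median was 0.94, beside 0.01 over the protein-coding genes with a mean level of at least 1. Over all genes the calls shifted from 389 higher and 301 lower to 220 higher and 522 lower. Utp3 then had a log2 fold change of 1.95 (limma adjusted p = 0.111) and Nhp2 one of 2.89 (limma adjusted p = 0.177). The genes that fell on the other side of 0 under this scaling were Nop56, Dnttip2 and Ddx52, at -0.28, -0.22 and -0.47.

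The spread within groups was large. The median SD of log2(level + 1) over the 46 genes was 0.84 in untreated and 0.63 in LPS samples, beside 0.77 and 0.30 over the protein-coding genes with a mean level of at least 1. In 37 of the 46 genes the untreated samples had the larger SD, as in 4877 of the 5895 protein-coding genes. In Utp6 and Nop2 only untreated replicate 3, and in Pno1 only untreated replicate 1, reached into the range of the LPS samples.

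Other genes of ribosome assembly were read from lists drawn up alongside the 46. Of 53 further processome and polymerase I genes, 23 were in the table, 21 had a log2 fold change above 0, and the median was 0.85. One was called higher, Ruvbl1, an ATPase that helps assemble snoRNPs, at 2.06, 0 and 0.490 when untreated and at 12.8, 6.32 and 12.7 after LPS (log2 fold change 2.75, SE 0.53, limma adjusted p = 0.0638). Of 53 large-subunit assembly genes, 42 were in the table, 38 had a log2 fold change above 0, and the median was 1.24. Called higher were 6 of these, with Nop16, Ebna1bp2 and Rpf2 at the smallest p, and in 21 the groups did not overlap with LPS above, beside 1.69% and 13.1% of all genes tested and 4.89% and 24.6% of the protein-coding genes with a mean level of at least 1. Nop16, a factor of the early pre-60S particle, was at 1.85, 0.660 and 1.06 when untreated and at 22.8, 8.84 and 18.8 after LPS, with a log2 fold change of 2.97 (SE 0.45, limma adjusted p = 0.0400). Ebna1bp2 and Rpf2 had log2 fold changes of 2.71 (SE 0.58) and 2.44 (SE 0.55). LPS replicate 2 was the lowest LPS sample in 21 of the 23 and in 40 of the 42 genes. None of these genes was called lower.

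The RNA exosome, which trims the rRNA precursors, had 10 of 14 genes in the table, with a median log2 fold change of 0.30. Here 7 were above 0, 0 were called by limma and 2 were above 0 at an unadjusted p under 0.05. The MYC network, whose best known member is held to drive ribosome assembly genes in growing cells, had 11 of 13 genes in the table, and Myc itself was not analysed here. Its median log2 fold change was 0.01, 6 were above 0, 0 were called by limma and 1 (Mycl) had an unadjusted p under 0.05. Max was at 18.0, 21.5 and 13.3 when untreated and at 13.2, 12.8 and 10.8 after LPS, below every untreated sample in each case (log2 fold change -0.47, SE 0.30, limma adjusted p = 0.496). LPS replicate 2 was the lowest LPS sample in 2 of the 11 MYC network genes.

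**Figure D4:**
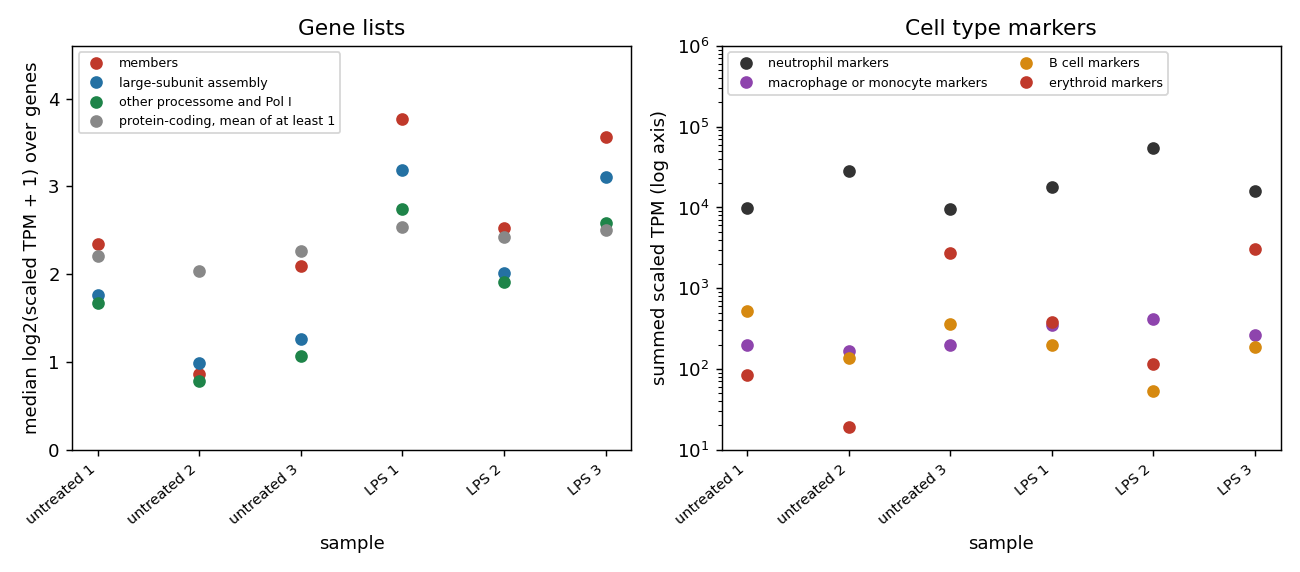
Left, median log2(scaled TPM + 1) in each sample over the 46 genes, the 42 large-subunit assembly genes, the 23 further processome and polymerase I genes and the 5895 protein-coding genes with a mean level of at least 1. Right, summed scaled TPM of neutrophil, macrophage or monocyte, B cell and erythroid markers in each sample, on a log axis. In the samples numbered 2 the ribosome assembly medians are the lowest of their group, the neutrophil sums the highest and the B cell sums the lowest.

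Some of the 46 genes share sequence with copies elsewhere, where the counting could split reads. With a stretch of at least 150 bases at 95% identity, 8 of the 46 had 20 pseudogene copies in all, 6 each for Npm1 and Nop56, 3 for Ddx18 and 1 each for Ddx21, Imp3, Fbl, Nop10 and Nop58. Of these copies 9 were in the table. Gm16433, a copy of Ddx18, was at 2.95, 3.63 and 0.371 when untreated and at 3.92, 2.55 and 4.18 after LPS. Ddx18 itself was at 4.52, 0.594 and 2.17 and then at 8.96, 2.58 and 9.28, and its values are uncertain for this reason. Gm6477, a copy of Npm1, reached 5.66 in LPS replicate 3, and the other copies in the table stayed lower. Nop58, Krr1 and Nop2 also shared repeat stretches of this length with 121, 54 and 15 other genes. None of the 4 genes that rose had a pseudogene copy, but Nol10 shared a stretch of this length with 2 other genes.

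Within the bounds of 4 of the 46 genes, Nop56, Nop58, Ncl and Tsr1, lie 14 snoRNA genes of the GENCODE M39 annotation. Of these 13 were in the table, and 4 were above 0 in any sample, each in 1 sample. The libraries were made with an mRNA kit. The median log2 fold change of the 4 host genes was 1.54 and that of the other 42 was 1.25.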

How the data were processed

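RNA was sequenced from neutrophils of 6 samples, 3 untreated and 3 given LPS, grouped by the labels. The authors mapped reads with STAR and quantified genes with Kallisto; GRCm39 is given by the methods and both GRCm39 and mm10 by the submitters' processing notes, which also name fastp. The deposited values, named normalized counts by the authors, were taken as scaled TPM per gene. They covered 38739 genes, of which 15690 were at 0 throughout. The unit was read from the tool and the values, and the scale factors are not given in the sources used here. Raw counts and hence depth were not given in the sources used here, so no counting intervals could be set.

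The table was fitted with limma 3.58.1 (trend, R 4.3.3) on log2(TPM + 1) over the 23049 genes that passed a minimum of above 0 in any sample, with untreated and LPS as groups, no covariates and Benjamini-Hochberg adjustment over all of them. Calls used the limits of the study, and every member is described by role. Values per sample were given for members called and, in each role, for those with the smallest and largest p and with a negative change, and for some further members chosen after their values were seen. Up to 3 called genes were named from each other list. The fit was tested on simulated data. The authors' methods name edgeR and limma-voom, which need counts. The members and the lists were chosen with earlier results of these data known. One B cell marker of the list is not reported here and was left out of the sums. Symbols were matched to GENCODE M39 and promoters to RefSeq tables, and near-identical copies were searched with blastn 2.17.0. Alternatives changed the pseudocount, filter, scaling, variance trend, pairing and samples.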

Additional observations from a re-analysis of the deposited data

How the results depend on the processing

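Over 19 alternative analyses, the 44 genes with a log2 fold change above 0 became 39 to 45 and their median of 1.25 became 0.61 (pseudocount 5) to 1.88 (pseudocount 0.1), and none of the 46 genes was called lower in any. The calls were less stable. The 4 genes called higher became 2 without a variance trend, 2 with a pseudocount of 5, 0 when scaled to the protein-coding sum, 2 with that scaling and a pseudocount of 0.1, 8 with a log2 fold change limit of 1, and 1 to 8 when 1 replicate was left out. Over all genes tested, the 389 called higher became 340 without a trend and 129 with a pseudocount of 5. They became 220 with the scaling, 513 with the scaling and a pseudocount of 0.1, and 238 to 434 when 1 replicate was left out. Shares of all genes are not given here for the limit of 1 or for the adjusted p in the alternatives. The 1 gene at an adjusted p under 0.05 became 5 when centred on the protein-coding median, 5 with a mean of at least 1, 2 without a variance trend, and 0 to 1 when 1 replicate was left out. It became 0 when scaled to the protein-coding sum, also with a pseudocount of 0.1, without LPS replicate 2 or without both samples numbered 2, and 0 without those samples and no scaling. These last 4 alternatives, of which 3 combine 2 choices, were chosen after seeing the data. The cause was not tested for any of them.

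The main fit did not pair samples by replicate number, and the labels do not tie them. Over all genes tested, the deviations of samples with the same number from their group means correlated at 0.09, 0.20 and 0.08. These values do not settle whether such samples belong together. Under a block by replicate number, 9 of the genes described here were called higher, among them all 4 of the main fit. Of the genes described here, 0 reached an adjusted p under 0.05 under that block. The block gave 387 called higher over all genes tested, beside 389 in the main fit.

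Of 874 values of single genes, 784 stayed on their side of the limits and of 0, 33 lost and 27 gained a call, and 30 in 6 genes changed sign. When 1 replicate was left out, the log2 fold change ran from -0.29 to 0.60 for Nop56, from -0.33 to 1.68 for Imp3, from -0.75 to 1.01 for Dnttip2, from -0.58 to 0.060 for Ddx49 and from -0.17 to 0.33 for Ddx52. Without both samples numbered 2, Imp3 was at -0.11, Dnttip2 at -0.53, Ddx49 at 0.32 and Ddx52 at -0.15. Centring gave -0.17 for Nop56, -0.070 for Dnttip2 and -0.32 for Ddx52, and a pseudocount of 5 gave -0.010 for Ddx52. Scaled to the protein-coding sum, Nop56, Dnttip2 and Ddx52 were at -0.28, -0.22 and -0.47, and with a pseudocount of 0.1 at -0.32, -0.14 and -0.49. With that scaling Ddx52 was at -0.33 without LPS replicate 2, and without both samples numbered 2 the values were -0.28 for Nop56, -0.57 for Imp3, -0.99 for Dnttip2, -0.30 for Ddx47 and -0.60 for Ddx52. With 3 samples a group and no raw counts, single genes at levels near 1 are measured least precisely.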
